A study of Mus musculus with 3 samples.

Results

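Setd1a peaks that lay inside protein-coding genes, away from any annotated promoter but within reach of a start site, were described from 1 combined list of CUT & RUN peaks. A peak belonged to this set when its nearer edge lay more than 3000 bp from the transcription start site (TSS) of every GENCODE M21 transcript, it overlapped the body of a protein-coding gene, and the nearest protein-coding TSS was no more than 20000 bp away. Of the 6969 peaks in the list, 6911 lay on the 19 autosomes, and 403 of these (5.83%) met the rule. They are called gene-body peaks here, and the genes they overlap are called host genes. The other autosomal peaks were 4864 promoter peaks (within 3000 bp of a TSS), 554 deep gene-body peaks (more than 20000 bp from the nearest protein-coding TSS) and 1090 intergenic peaks.

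The cells were adult neural stem cells (NSCs), named neural progenitor cells in the labels, cultured from the dentate gyrus of Hopx-CreERT2::Setd1a fl/fl::H2B-GFP mice aged 7 to 8 weeks. All libraries were labelled WT, although the growth protocol names this line, with a floxed Setd1a allele, a Cre driven by Hopx and the H2B-GFP reporter, as the source of the cells. No step that activates or adds Cre is named for these libraries, and whether the cells received a virus is not stated. The cells were made quiescent with BMP4 and FGF2, each at 20 ng/ml, in the absence of EGF and were taken at day 5. The libraries were 2 Setd1a replicates, from independent cultures, and 1 rabbit IgG control. In CUT & RUN an antibody tethers a nuclease to chromatin, and the DNA cut free beside the bound protein is sequenced. The list held the chromosome, start and end of peaks found in both Setd1a replicates and no height, so no spread between replicates could be measured and no test over samples was possible. The depth of the libraries is unknown, the IgG library has no values here, and the intervals below are 95% intervals over peaks, genes or sequence windows that cover counting error only. The cell type named in the labels could not be checked from peak positions.

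Setd1a is a histone methyltransferase that works in a complex to methylate lysine 4 of histone H3. The trimethylated form of this mark is best known at active promoters, most of which lie in CpG islands, and part of the complex binds unmethylated CpG. The monomethylated form is typical of enhancers, many of which lie in introns of the gene they act on or of a neighbour. The dentate gyrus is a region of the hippocampus in which NSCs persist in adults, mostly in quiescence.

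The sequences below are the central 200 bp of peaks that carry the results that follow, read 5′ to 3′ on the plus strand of mm10 from the RefSeq GRCm38.p6 assembly. The 7 in the first group are from peaks with few CpG dinucleotides, as in most of the set. The first is from the widest gene-body peak, chr2:92424514-92424713 in Cry2, a repressor of the circadian clock, with coding exon bases in capitals. The second is from the next widest, chr10:93275771-93275970 in Elk3, an ETS-family transcription factor, with a match to a CTCF pattern in capitals. The others are chr2:26487691-26487890 in the receptor gene Notch1, chr6:90541470-90541669 in Aldh1l1, chr9:110250110-110250309 in Cspg5, chr12:16657398-16657597 in Ntsr2 and chr2:28525861-28526060 in Ralgds. Capitals in these mark matches on either strand to TTGGCA (the recognition element of nuclear factor I, NFI), CAGCTG (an E-box bound by basic helix-loop-helix proteins), TGANTCA (AP-1) or GTGGGAA (RBPJ, the DNA-binding partner of Notch).
Cry2: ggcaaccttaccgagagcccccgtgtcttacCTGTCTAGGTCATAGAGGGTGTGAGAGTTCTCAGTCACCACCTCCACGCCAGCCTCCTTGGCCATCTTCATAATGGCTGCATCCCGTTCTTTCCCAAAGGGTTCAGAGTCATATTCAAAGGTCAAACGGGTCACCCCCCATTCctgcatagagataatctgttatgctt
Elk3: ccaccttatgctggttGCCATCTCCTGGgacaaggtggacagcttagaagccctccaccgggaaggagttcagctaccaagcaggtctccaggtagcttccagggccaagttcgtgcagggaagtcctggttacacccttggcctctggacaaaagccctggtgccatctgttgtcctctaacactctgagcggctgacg
Notch1: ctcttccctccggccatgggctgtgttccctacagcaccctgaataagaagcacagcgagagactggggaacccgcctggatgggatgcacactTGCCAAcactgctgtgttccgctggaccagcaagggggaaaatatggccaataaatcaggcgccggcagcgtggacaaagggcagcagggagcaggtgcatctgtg
Aldh1l1: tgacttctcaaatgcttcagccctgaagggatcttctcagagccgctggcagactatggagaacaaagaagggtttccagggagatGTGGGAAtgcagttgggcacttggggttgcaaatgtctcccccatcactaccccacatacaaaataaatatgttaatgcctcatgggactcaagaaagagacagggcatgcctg
Cspg5: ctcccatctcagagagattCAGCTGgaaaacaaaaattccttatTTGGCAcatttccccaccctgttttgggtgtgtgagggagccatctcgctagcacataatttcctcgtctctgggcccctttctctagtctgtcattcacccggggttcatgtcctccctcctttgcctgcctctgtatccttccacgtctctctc
Ntsr2: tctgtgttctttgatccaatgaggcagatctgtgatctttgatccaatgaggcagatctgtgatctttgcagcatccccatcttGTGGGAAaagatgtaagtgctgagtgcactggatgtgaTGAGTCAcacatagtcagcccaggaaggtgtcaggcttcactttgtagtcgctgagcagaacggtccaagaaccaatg
Ralgds: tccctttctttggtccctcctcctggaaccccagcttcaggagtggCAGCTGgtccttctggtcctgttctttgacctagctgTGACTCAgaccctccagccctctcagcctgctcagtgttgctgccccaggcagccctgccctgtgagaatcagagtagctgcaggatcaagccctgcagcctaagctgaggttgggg

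A further 3 windows show the small set of gene-body peaks that met CpG island criteria. They are chr3:30514604-30514803 in Mecom, chr4:82513314-82513513 in Nfib and chr11:69410053-69410252 in Kdm6b, and every CpG is in capitals, 10, 20 and 15 of them respectively.
Mecom: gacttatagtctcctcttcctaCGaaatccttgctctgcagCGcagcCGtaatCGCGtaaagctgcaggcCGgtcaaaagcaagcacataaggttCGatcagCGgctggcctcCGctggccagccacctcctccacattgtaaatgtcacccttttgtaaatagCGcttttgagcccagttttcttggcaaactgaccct
Nfib: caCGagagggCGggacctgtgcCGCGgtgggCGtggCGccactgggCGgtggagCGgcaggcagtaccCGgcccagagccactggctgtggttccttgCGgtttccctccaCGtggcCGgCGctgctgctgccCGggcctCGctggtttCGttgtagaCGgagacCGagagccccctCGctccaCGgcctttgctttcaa
Kdm6b: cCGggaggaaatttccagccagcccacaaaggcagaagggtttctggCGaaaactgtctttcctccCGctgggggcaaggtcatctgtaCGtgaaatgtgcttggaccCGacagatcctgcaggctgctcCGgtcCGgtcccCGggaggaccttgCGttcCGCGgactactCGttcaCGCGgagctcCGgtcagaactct

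Gene-body peaks were sparse beside promoter peaks. The rule can be met in 263 Mb of autosomal sequence (11.0% of the total), which is called eligible sequence here, and its density of peaks was 1.53 per Mb (exact Poisson interval 1.38 to 1.69). Promoter windows held 12.7 peaks per Mb, deep gene-body sequence 1.10 (1.01 to 1.20) and intergenic sequence 0.874 (0.823 to 0.927). Within eligible sequence, the 87 peaks up to 5000 bp from the TSS gave 1.94 peaks per Mb (1.56 to 2.40). The 135 peaks over 5000 and up to 10000 bp gave 1.48 (1.24 to 1.75), the 106 up to 15000 bp gave 1.50 (1.23 to 1.81), and the 75 up to 20000 bp gave 1.33 (1.04 to 1.66). The nearest bin had the highest density of the 4 and the farthest the lowest, with intervals that overlapped in part, and the difference was not tested. The density stayed at 1.57 (1.40 to 1.76) in gene bodies over 20000 and up to 50000 bp, and was 1.16 (0.985 to 1.36) up to 100000 bp and 0.561 (0.457 to 0.682) beyond 100000 bp. The bins on either side of the outer limit of the rule, at 20000 bp, had overlapping intervals.

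**Figure D1:**
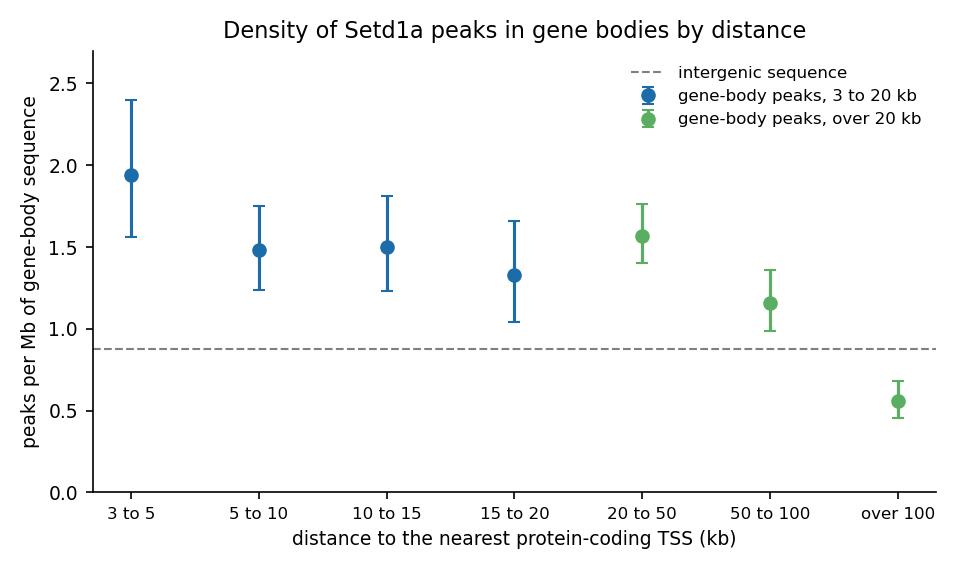
Density of Setd1a peaks in gene bodies (vertical axis, peaks per Mb of gene-body sequence more than 3000 bp from any TSS) by distance to the nearest protein-coding TSS (horizontal axis, kb). Points are the combined peak list and bars are exact Poisson 95% intervals; the dashed line is the density in intergenic sequence, 0.874 per Mb, which lies below every bin except the one over 100 kb, at 0.561 per Mb.

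The nearest TSS lay at a median of 8992 bp (quartiles 5611 and 13506 bp, range 3014 to 19697 bp). Each distance runs to the nearest protein-coding TSS of any transcript, which can be internal to a gene and far from its first start. The peaks just inside the inner limit were in Polrmt (3014 bp), Rgs20 (3025 bp) and Tenm4 (3026 bp), and those just outside it were at Shisal1 (2994 bp), Zfp771 (2943 bp) and Gpd1l (2824 bp). Just inside the outer limit lay peaks in Shisa9 (19697 bp), Vwf (19653 bp) and Dnajb12 (19649 bp), and just outside it peaks in Tmco4 (20097 bp), 2310022B05Rik (20187 bp) and Fmn2 (20217 bp). All 19 autosomes held gene-body peaks. Their density ranged from 0.414 per Mb of eligible sequence on chromosome 16 (4 peaks, interval 0.113 to 1.06) to 2.47 on chromosome 10 (34 peaks, 1.71 to 3.45).

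Most gene-body peaks lay in an intron downstream of a TSS of their own host gene. The nearest protein-coding TSS belonged to a host gene for 356 of the 403 peaks (88.3%, Wilson interval 84.8 to 91.1). Of all gene-body peaks, 279 lay downstream of a host TSS and 77 lay inside the host gene but upstream of the nearest of its TSSs, an alternative start further along the gene. The remaining 47 were nearer to the start of another gene, 27 of them upstream of it and 20 downstream. In total 299 (74.2%, 69.7 to 78.2) were downstream of the nearest protein-coding TSS, and eligible sequence itself was downstream for 73.0% of its bases, a value inside that interval.

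Most gene-body peaks overlapped no exon, and 47.9% overlapped a first intron and no exon. No exon of a protein-coding gene was touched by 339 gene-body peaks (84.1%, 80.2 to 87.4). The 64 that overlapped one made up 15.9% (12.6 to 19.8). Exons filled 10% of eligible bases, but a whole peak touches an exon more often than a single base does, so the 2 shares are not on the same footing. Deep gene-body peaks, which had nearly the same widths, overlapped an exon in 7.40% of cases (5.50 to 9.89). A first intron of any protein-coding transcript, and no exon, was overlapped by 193 gene-body peaks (47.9%, 43.1 to 52.8), against 42.9% of eligible bases and 25.3% (21.8 to 29.1) of deep peaks. By the rule, deep peaks lie farther from a TSS, where first introns are expected less often. The share of exons and first introns in deep gene-body sequence was not computed, so the contrasts with deep peaks have no background. Annotated noncoding genes were overlapped by 10 gene-body peaks (2.48%), and filled 3.41% of eligible bases.

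Few gene-body peaks lay at a start site that GENCODE does not list. A start of a RefSeq transcript lay within 3000 bp of 38 of them (9.43%, 6.95 to 12.7), and within 500 bp of 8. The share within 3000 bp was 4.87% (3.37 to 7.00) of deep peaks and 10.6% (8.86 to 12.5) of intergenic peaks. It was not computed for eligible sequence, so the share in gene-body peaks has no background. For only 2 peaks was the RefSeq start within 3000 bp a curated transcript. The peaks that overlapped a RefSeq start were those in Cry2 and in the collagen gene Col27a1, both at starts of predicted transcripts. The remaining 6 within 500 bp lay in Rab11fip4, Agrn, Rab3il1, Tpcn2 and, 2 of them, Kdm6b, again at predicted starts. These genes were named after their values had been seen.

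Gene-body peaks were narrower than promoter peaks and close in width to the other distal peaks. Their median width was 384 bp (quartiles 296 and 562 bp, range 233 to 1937 bp), against 508 bp for promoter peaks, 376 bp for deep gene-body peaks and 385 bp for intergenic peaks. Peaks of at least 500 bp made up 32.3% of gene-body peaks (130 peaks, 27.9 to 37.0) and 51.1% of promoter peaks (49.7 to 52.5). Peaks of at least 1000 bp made up 3.23% (13 peaks, 1.89 to 5.44) and 9.70% (8.90 to 10.6). Width changed little within the distance range, with medians of 389 bp up to 10000 bp from the TSS and 377 bp beyond. Exons were overlapped by 22.3% (16.0 to 30.2) of the gene-body peaks of at least 500 bp and 12.8% (9.36 to 17.3) of the narrower ones. Since the list holds no height, width is the only measure of extent, and it rises with depth and with how the peaks of both replicates were joined.

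**Figure D2:**
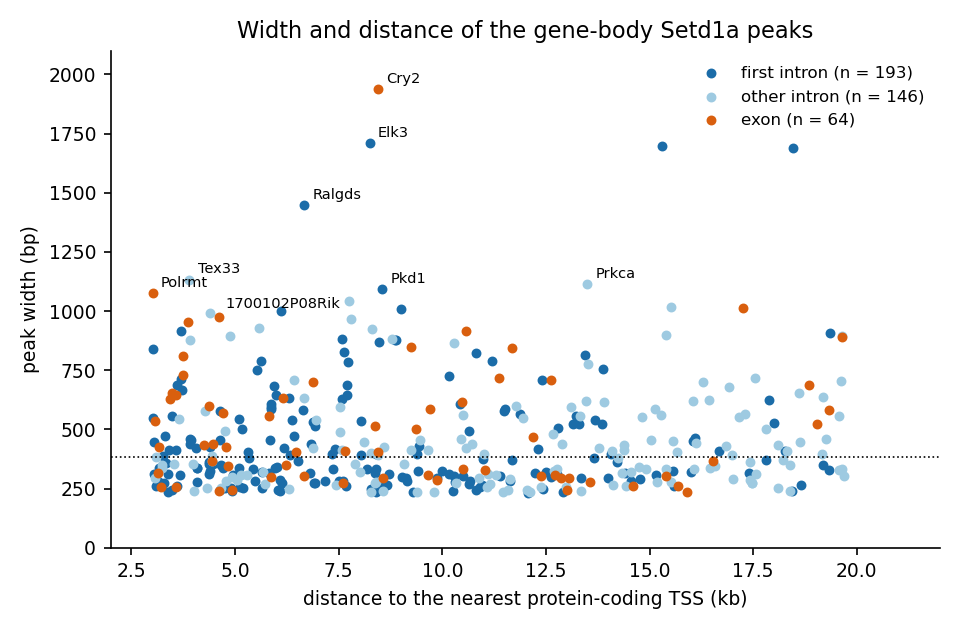
Width of each of the 403 gene-body peaks (vertical axis, bp) against its distance to the nearest protein-coding TSS (horizontal axis, kb), coloured by the feature it overlaps. Of the widest, 8 are named by host gene, the dotted line is the median of 384 bp, and wide peaks occur across the whole range of distances.

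The widest gene-body peaks lay in genes of varied function, and 8 of the 10 widest are described here. The widest, 1937 bp at chr2:92423645-92425581, was wider than 99.8% of all autosomal peaks. It lay 8455 bp downstream of the TSS of Cry2, a clock repressor, and overlapped exons. It also overlapped the start of a predicted RefSeq transcript of the same gene. The next, 1711 bp at chr10:93275015-93276725, lay in the first intron of Elk3, 8250 bp downstream of the TSS. Ralgds, an exchange factor for Ral GTPases, held 1449 bp at chr2:28525236-28526684.

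A further 5 were 1041 to 1133 bp wide. They lay in Tex33, in Prkca (protein kinase C alpha), in Pkd1 (polycystin-1), in Polrmt (the mitochondrial RNA polymerase) and in 1700102P08Rik. Of these 8, 2 overlapped exons, 3 lay in first introns and 3 in other introns. All 8 had CpG ratios of 0.102 to 0.375, far below the promoter median given next, and 3 of their host genes also had a promoter peak (Cry2, Pkd1 and Polrmt).

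Gene-body peaks had few CpG dinucleotides, unlike promoter peaks. The CpG ratio is the number of CpG dinucleotides found over the number that the C and G content of the sequence would give, and CpG islands keep a high ratio. Gene-body peaks had a median CpG ratio of 0.199 (interval of the median 0.182 to 0.219), against 0.791 (0.785 to 0.797) for promoter peaks. Deep gene-body peaks and intergenic peaks had medians of 0.197 and 0.202. Median GC content was 51.5% (50.6 to 52.2) in gene-body peaks, 62.3% in promoter peaks, 49.2% (48.6 to 49.9) in deep peaks and 48.7% in intergenic peaks. Gene-body peaks thus had the CpG depletion of other distal peaks with a GC content a few points higher. Eligible sequence was lower in both. In windows of 200 bp the median CpG ratio was 0.209 at the centres of gene-body peaks and 0.166 through eligible sequence, with GC contents of 52.0% and 44.0%. Within the set, the 222 peaks up to 10000 bp from the TSS had a median GC content of 52.3% and a CpG ratio of 0.222, and the 181 beyond had 50.2% and 0.182.

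CpG island criteria (at least 200 bp, GC content of at least 50% and a CpG ratio of at least 0.6) were met by 9 gene-body peaks, 2.23% (1.18 to 4.19). The share was 74.6% (73.3 to 75.8) of promoter peaks, 1.62% (0.857 to 3.06) of deep peaks and 4.50% (3.42 to 5.89) of intergenic peaks. In windows of 200 bp the criteria were met by 3.23% of gene-body peak centres and by 0.706% of windows through eligible sequence. With only the GENCODE transcripts tagged basic as start sites, 4.83% (3.24 to 7.15) of the 476 gene-body peaks met the criteria. Of the 9, 8 lay within 10000 bp of a TSS. All 9 are given here, including genes outside the naming rule that were added after their values were seen. The widest was in Mecom, a zinc finger transcription factor, at chr3:30514209-30515198 (990 bp, GC content 57.3%, CpG ratio 0.977). The highest CpG ratio, 1.31, was in an exon of the zinc finger gene Zfp771. Mcidas, a regulator of multiciliated cells, held 599 bp with a ratio of 0.636, and Pura, which encodes a purine-rich element binding protein, 556 bp with 0.900.

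Kdm6b, which encodes a demethylase of lysine 27 of histone H3, held an island peak of 359 bp with a ratio of 0.821, and 760 bp away a second gene-body peak of 440 bp with a ratio of 0.457. Nfib, a transcription factor of NSCs and glia, held 283 bp at chr4:82513272-82513554 with a GC content of 68.9% and a ratio of 0.850. Mrps27, a protein of the mitochondrial ribosome, held 400 bp with 0.712. A peak of 457 bp with a ratio of 0.860 lay in the read-through model Gm20388, 4646 bp upstream of the TSS of the autophagy gene Map1lc3b. The last was in Lars2, the mitochondrial leucyl-tRNA synthetase. Its 244 bp were 97.1% repeat-masked, unlike the other islands, of which none was more than 13.4% masked. A second peak in Lars2 had a CpG ratio of 0.772 but a GC content of 49.3%, under the limit.

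**Figure D3:**
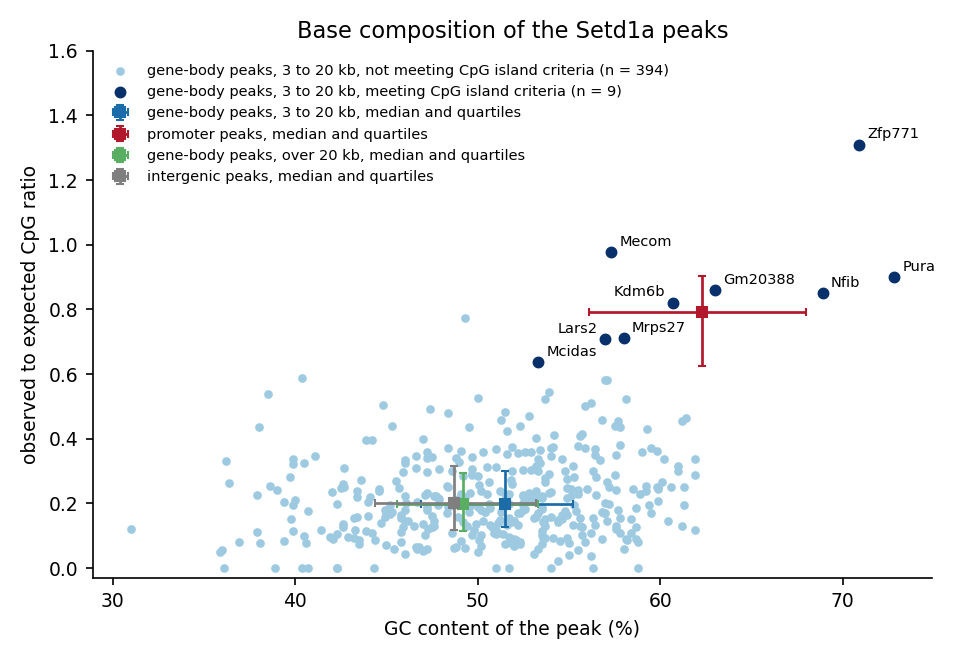
GC content (horizontal axis, %) and observed to expected CpG ratio (vertical axis) of each gene-body peak, with medians (squares) and quartiles (bars) of the gene-body, promoter, deep gene-body and intergenic peaks. The 9 gene-body peaks that meet CpG island criteria are named by host gene and lie around the promoter median of 0.791, while most others lie around 0.199.

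Repeats filled little of the gene-body peaks. The median share of repeat-masked bases was 7.54%, near the 6.97% of deep peaks, and 113 gene-body peaks (28.0%) held no masked base. More than 50% of bases were masked in 10 (2.48%, 1.35 to 4.51). In windows of 200 bp the median masked share was 2.50% at the centres of gene-body peaks and 17.5% through eligible sequence. More than 50% of bases were masked in 4.71% and 21.6% of these windows. Only uniquely mapped reads were kept, and the part of this in the low repeat share was not tested. Gene-body peaks seldom came in clusters. Another peak lay within 1000 bp of 11 (2.73%, 1.53 to 4.82), against 8.53% (7.78 to 9.35) of promoter peaks. The share was 3.07% (1.92 to 4.86) of deep peaks and 1.93% (1.26 to 2.93) of intergenic peaks, so it was low in all distal classes. By the rule, gene-body peaks lie more than 3000 bp from any TSS, where peaks are sparser than in promoter windows.

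Short sequence elements of transcription factors differed between gene-body and promoter peaks. For this, 22 motifs were searched on both strands in the central 200 bp of every peak and in 144210 windows of 200 bp spaced through eligible sequence. Median GC content in these windows was 52.0% for gene-body peaks, 64.0% for promoter peaks, 49.5% for deep peaks and 44.0% for eligible sequence, and each share below moves with it to a degree that was not tested. The NFI element TTGGCA was in 72 gene-body windows, 17.9% (14.4 to 21.9). It was in 7.65% (6.93 to 8.43) of promoter peaks, 20.6% (17.4 to 24.1) of deep peaks, 18% (15.8 to 20.4) of intergenic peaks and 9.85% of eligible windows. The E-box CAGCTG was also in 72 gene-body windows (17.9%), against 10.5% (9.67 to 11.4) of promoter peaks, 16.8% (13.9 to 20.1) of deep peaks and 8.73% (8.58 to 8.87) of eligible windows. For both elements the share in gene-body peaks stood above those of promoter peaks and of eligible sequence by more than counting error, and its interval overlapped that of deep peaks.

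The AP-1 element TGANTCA was in 30 gene-body windows (7.44%, 5.26 to 10.4), above the 2.75% (2.33 to 3.25) of promoter peaks. Its interval held the 9.21% of deep peaks and the 5.88% of eligible windows. The RBPJ element GTGGGAA was in 5.96% (4.03 to 8.71) of gene-body windows and 3.67% (3.58 to 3.77) of eligible windows. The TEAD element GGAATG, at 11.7% (8.88 to 15.2) and 10.3%, and the STAT element TTCNNNGAA, at 6.95% (4.85 to 9.86) and 6.39%, had intervals that held the value of eligible sequence. The SOX element ACAATGG, bound by factors that keep NSCs, was in 2.48% (1.35 to 4.51) against 2.84%. The FOX element TGTTTAC was in 4.47% (2.84 to 6.95) of gene-body windows, 1.99% (1.11 to 3.52) of deep peaks and 2.97% of eligible windows.

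Several elements frequent in promoter peaks were less frequent in gene-body peaks, though some of these exceeded their share of eligible sequence. GGGCGG, the element of SP and KLF factors, was in 6.45% (4.44 to 9.29), against 47.7% (46.3 to 49.1) of promoter peaks and 2.31% of eligible windows. Of the 9 island peaks 3 held it. The ETS element CCGGAAG was in 3 gene-body windows (0.744%, 0.253 to 2.17) and 9.29% (8.51 to 10.1) of promoter peaks, with 0.671% in eligible windows. The GC-rich element GGCGCC, which SMAD proteins of the BMP pathway bind, was in 2.73% (1.53 to 4.82) and 17.0%, and in 0.595% (0.557 to 0.636) of eligible windows. The E-box CACGTG, bound by the clock proteins and by Bhlhe40, was in 15 gene-body windows (3.72%, 2.27 to 6.05) and 6.06% (5.43 to 6.77) of promoter peaks, with intervals that overlapped. It was in 3.61% of deep peaks and 2.44% of eligible windows, both inside the gene-body interval. The CTCF pattern, CCANNAGNN followed directly by GGC, was in 12 gene-body windows (2.98%, 1.71 to 5.13), 1.89% of promoter peaks and 1.55% (1.49 to 1.62) of eligible windows. The NRF1, YY1 and cyclic AMP response (CRE) elements were in 1 gene-body window each (0.248%), all in island peaks. They were in 2.12, 2.04 and 1.99% of promoter peaks and in 0.0347, 0.119 and 0.103% of eligible windows. The YY1 and CRE matches shared a window, that of the Lars2 peak with 97.1% of its bases repeat-masked, and the NRF1 match was in Zfp771. No gene-body window held the REST, CEBP, palindromic SMAD or paired NFI elements searched, for which the interval allows up to 0.944%. Eligible windows held them in 0.205, 0.0125, 0.172 and 0.0111% of cases, all within that interval, so their absence shows no difference from eligible sequence.

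**Figure D4:**
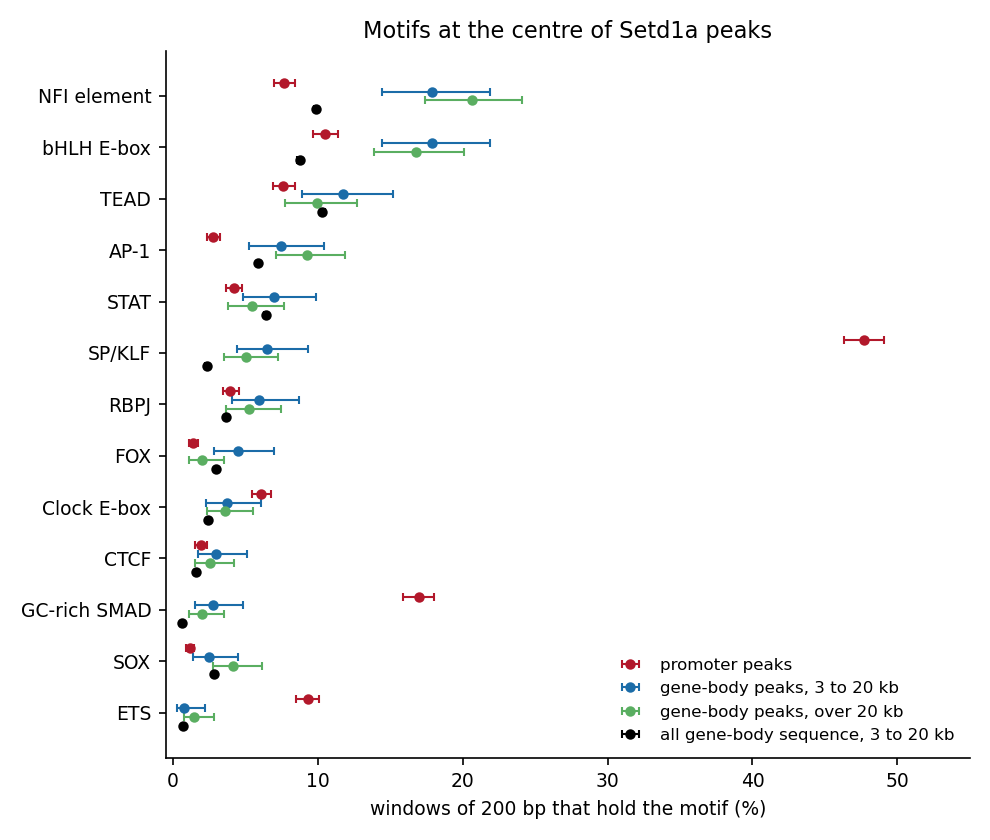
Share of 200 bp windows that hold each of 13 motifs (horizontal axis, %), for the centres of promoter peaks, gene-body peaks and deep gene-body peaks and for windows through all eligible gene-body sequence. Bars are Wilson 95% intervals; the NFI element and the bHLH E-box are at 17.9% in gene-body peaks, and the SP/KLF element is at 47.7% in promoter peaks and 6.45% in gene-body peaks.

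The NFI element was more frequent around the middle of gene-body peaks than 1000 bp away on the left. This profile was drawn after the shares above had been seen. From 8.93% (6.52 to 12.1) of windows centred 1000 bp to the left, the share was 15.4% (12.2 to 19.2) at 400 bp to the left, 13.9% at 200 bp to the left, 17.9% at the centre, 17.4% and 14.6% at 200 and 400 bp to the right, and 10.9% at 1000 bp to the right. The intervals of the windows within 400 bp overlapped that of the centre. The E-box CAGCTG was in 17.4, 17.9 and 16.9% of windows at 200 bp to the left, the centre and 200 bp to the right, and in 15.4 and 11.4% at 1000 bp to the left and right. For the NFI element, deep gene-body peaks had a similar course, with 12.5%, 20.6% and 10.5% at 1000 bp to the left, the centre and 1000 bp to the right. Promoter peaks had NFI shares of 9.99%, 7.65% and 9.91% there. The E-box was in 11.6%, 16.8% and 11.4% of deep and 9.07%, 10.5% and 8.74% of promoter windows at these positions. Over the same windows the mean GC content of gene-body peaks went from 48.1% to 51.3% and back to 47.6%. Their mean share of repeat-masked bases went from 22.1% to 11.1% and back to 21.7%. The part of GC content and repeats in the NFI profile was not tested.

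**Figure D5:**
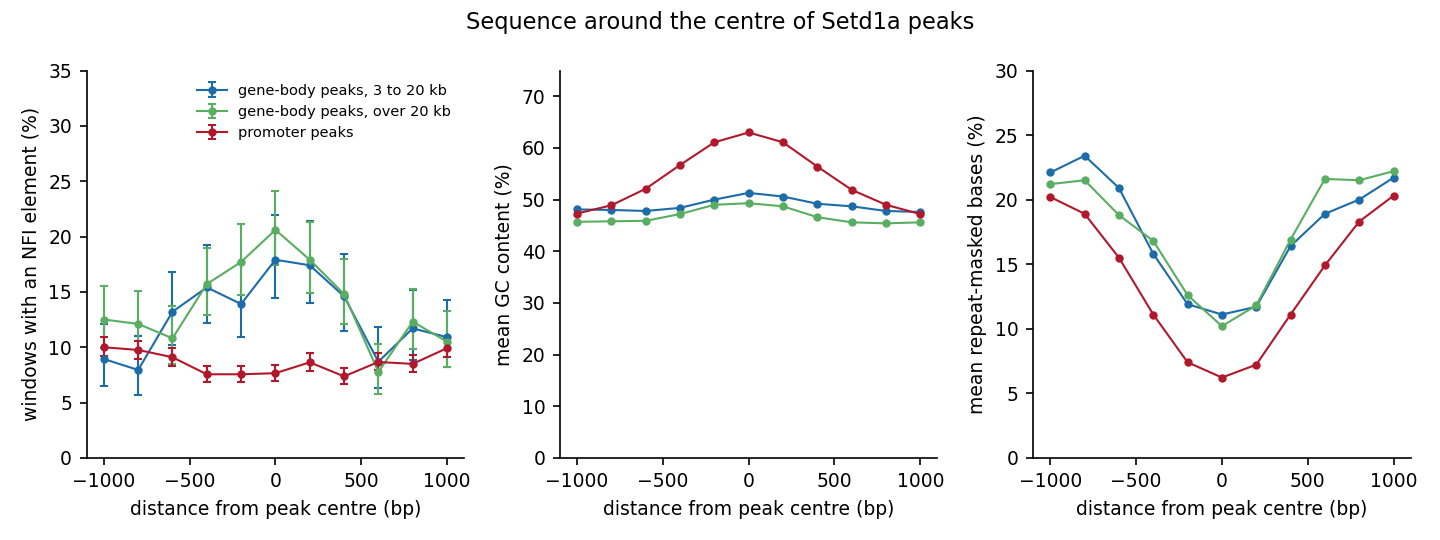
Windows of 200 bp at steps of 200 bp around the centre of gene-body, deep gene-body and promoter peaks (horizontal axes, bp), with the share holding the NFI element (left, %, bars are Wilson 95% intervals), the mean GC content (middle, %) and the mean share of repeat-masked bases (right, %). In gene-body peaks the NFI share is 17.9% at the centre and 8.93% at the left end, and masked bases are 11.1% and 22.1%.

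The 403 peaks fell in 391 host genes. Of the 16523 autosomal protein-coding genes with any eligible sequence, these make up 2.37%, which is the background for the gene groups below. A single gene-body peak was held by 361 host genes, and 29 held 2. Gm20388 held 5, but it is a read-through model on chromosome 8 from 119910841 to 124345722 that spans many neighbours, and the nearest starts of its peaks were those of Fam92b, Banp, Map1lc3b, Car5a and Sult5a1. In all, 21 gene-body peaks (5.21%) overlapped 2 or more protein-coding genes and are counted under each. Host genes were long, with a median of 66827 bp against 25578 bp for all genes with eligible sequence. The share of genes with a gene-body peak was 0.889% (0.693 to 1.14) up to 20000 bp of length, 2.05% (1.69 to 2.49) up to 50000 bp, 3.64% (2.97 to 4.47) up to 100000 bp and 5.99% (5.10 to 7.01) beyond. A longer gene can hold more eligible sequence in which a peak may lie. Peaks per Mb of eligible sequence were not computed by gene length, so these shares show no preference for long genes.

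A promoter peak of the same gene accompanied the gene-body peak in a minority of host genes. Of the 391, 127 (32.5%, 28.0 to 37.3) had a peak within 3000 bp of a TSS, against 25.0% (24.3 to 25.7) of the 16132 genes with eligible sequence and no gene-body peak. Gene length differed between these groups, so the shares were also compared within classes of length. They were 26.2% (16.8 to 38.4) and 19.7% up to 20000 bp, 32.0% (23.7 to 41.7) and 28.2% up to 50000 bp, 35.2% (26.1 to 45.6) and 31.7% up to 100000 bp, and 33.8% (26.5 to 41.9) and 27.4% beyond. Host genes were above in all 4 classes, and each interval held the value of the other genes.

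The 29 genes with 2 gene-body peaks tied for rank, so those named here, other than genes of the lists below, were chosen after their values had been seen. Gtpbp3, a mitochondrial tRNA-modifying enzyme (807 bp apart), the glycosyltransferase gene Gcnt4 (320 bp apart) and Kdm6b (760 bp apart) held theirs side by side. So did Angpt2, an endothelial growth factor that lies within Mcph1 on the other strand, whose shared peaks were 249 bp apart. The forkhead transcription factor gene Foxp1 (68886 bp apart), the adaptor gene Bcar1 (9347 bp), the scaffold gene Dlg5 (50342 bp) and Igf2r, the receptor that clears insulin-like growth factor 2 (69569 bp), held theirs far apart.

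Gene lists of pathways and cell types relevant to quiescent NSCs held few gene-body peaks each. Of 14 lists, 11 held at least 1, and the most genes with a peak in any list was 4. The counts give no test of any list, and the background of 2.37% does not account for gene length. The densities per Mb of eligible sequence, which do, are given with exact Poisson intervals beside the 1.53 of all eligible sequence. These intervals treat peaks as independent, although some genes hold more than 1 of the peaks of a list. The lists were also chosen with earlier results of these data known. An interval that leaves out 1.53 is therefore no test of a list either.

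Markers of radial glia and astrocytes, the cell class of adult NSCs, had gene-body peaks in 4 of the 24 genes with eligible sequence (16.7%, 6.68 to 35.9), or 5 peaks at 13.1 per Mb (4.25 to 30.5). Aldh1l1, a folate enzyme and astrocyte marker, held peaks of 332 and 882 bp, 15406 and 8779 bp upstream of an internal TSS. Cspg5, a chondroitin sulfate proteoglycan, held 914 bp in a first intron, 3688 bp downstream of the nearest TSS. Ntsr2, a neurotensin receptor, held 628 bp over an exon, 3426 bp downstream. Slc4a4, a sodium bicarbonate cotransporter, held 337 bp in a first intron. None of these 4 genes had a promoter peak, while 9 of the 24 genes in the list did. In the central windows printed above, Cspg5 held an NFI element and the E-box CAGCTG, and Ntsr2 held AP-1 and RBPJ elements.

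Transcription factors of NSCs had gene-body peaks in 3 of 32 genes (9.38%, 3.24 to 24.2), 3.31 peaks per Mb (0.683 to 9.68). These were the island peak in Nfib, 666 bp in a first intron of Tead1, an effector of the Hippo pathway, and 316 bp in Rfx4, a winged-helix factor of brain development. The Tead1 peak lay 3709 bp and the Rfx4 peak 14342 bp downstream of an internal TSS, far from the first start of the gene. Nfib and Rfx4 also had promoter peaks.

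Of the Notch pathway, which acts in both quiescent and dividing NSCs, 3 of 23 genes (13.0%, 4.54 to 32.1) had gene-body peaks, 9.68 per Mb (3.14 to 22.6). The receptor Notch1 held 1016 bp at chr2:26487283-26488298 and 316 bp at chr2:26500371-26500686, 15524 and 3136 bp downstream of an internal TSS, and had a promoter peak. Maml2, a coactivator of the Notch complex, held 415 and 396 bp, neither with a CpG. Mib1, a ubiquitin ligase for Notch ligands, held 324 bp, also without a CpG.

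Of the BMP and TGF-beta pathway, to which the BMP4 of the medium belongs, 3 of 32 genes (9.38%) had gene-body peaks, 4.42 per Mb (1.20 to 11.3). The ligand gene Bmp6 held 416 bp in a first intron, 7407 bp downstream of an internal TSS. Ltbp1, which binds latent TGF-beta, held 396 bp, 19156 bp downstream of an internal TSS. Ski, a corepressor of SMAD proteins, held 312 and 608 bp in its first intron and was the only gene of these 3 with a promoter peak.

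Of the receptor tyrosine kinase pathway, through which FGF2 acts, 4 of 32 genes (12.5%, 4.97 to 28.1) held gene-body peaks, 3.34 per Mb (1.09 to 7.80). Spry2, an inhibitor of the pathway, held 535 bp over an exon 3060 bp downstream of its TSS. The adaptor gene Gab1 held 312 bp and the kinase gene Akt2 held 543 bp, both in first introns. The 2 peaks counted for Fgfr2 lay nearest to Htra1 and Dmbt1, since 1 of its annotated models spans both genes.

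Of the Wnt pathway 3 of 37 genes (8.11%, 2.80 to 21.3) held gene-body peaks, 5.99 per Mb (1.63 to 15.3). The transcription factor gene Tcf7l2 held 716 bp, 17534 bp upstream of an internal TSS. Rnf43, a ubiquitin ligase that removes Frizzled receptors, held 565 bp, and the formin gene Daam1 held 313 and 431 bp in its first intron. Of the circadian clock genes 2 of 20 did, the repressors Cry2 and Per2, at 4.64 peaks per Mb (0.562 to 16.8). The Per2 peak of 274 bp lay in the first intron, 3283 bp downstream of the TSS, and both genes also had promoter peaks.

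Among genes of the Setd1a complex, related methyltransferases and the demethylase LSD1, 1 of 20 held a gene-body peak, 3.36 per Mb (0.0850 to 18.7). It was Kdm1a, which encodes LSD1, an enzyme that removes methyl groups from lysine 4 of histone H3. Its 306 bp lay in the first intron, 3663 bp downstream of the TSS, and no promoter peak was listed for it. Setd1a itself held none in 8812 eligible bases and had no promoter peak.

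Genes of cell cycle arrest (0 of 30, interval up to 11.4%), AP-1 and other immediate early genes (0 of 21, up to 15.5%) and cell adhesion (0 of 29, up to 11.7%) held no gene-body peak, although 12, 10 and 7 of them had promoter peaks. These counts cover only the genes listed. Agrn, Hspg2, Itga9 and Col27a1, genes of the matrix or its receptors that the adhesion and matrix list leaves out, did hold gene-body peaks. They were named after their values had been seen. The first 2 lists hold short genes, with 0.351 and 0.201 Mb of eligible sequence, in which 1.53 peaks per Mb would give less than 1 peak. For the cell cycle arrest and G1 control, immediate early, and adhesion and matrix lists the density intervals ran up to 10.5, 18.4 and 4.10 per Mb. The 5 genes given next, which the study named for this experiment and chose on these samples, were also without one. Bhlhe40, Bhlhe41 and Dazap2 had 879, 2054 and 1429 eligible bases, Atr 27854 and Fbxl5 30980, and all 5 had a promoter peak. With so little eligible sequence, the absence of a gene-body peak says little about these genes. Pgk1, which the study also named, was not assessed.

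Of other cell types, 1 of 25 neuronal genes (Nrxn3, 274 bp in the first intron), 1 of 14 genes of the oligodendrocyte lineage (Cspg4, 446 bp in the first intron) and 1 of 14 microglial and vascular genes (Cx3cr1) held a gene-body peak. The peak counted for Cx3cr1 lay over an exon of Csrnp1, 5874 bp downstream of its TSS, inside a long model of Cx3cr1. The intervals of these shares, 0.710 to 19.5, 1.27 to 31.5 and 1.27 to 31.5%, overlapped that of the radial glia and astrocyte list. Their densities were 0.799 (0.0202 to 4.45), 4.77 (0.121 to 26.6) and 2.48 (0.0628 to 13.8) per Mb. These intervals also overlapped that of the radial glia and astrocyte list, 13.1 (4.25 to 30.5).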

How the data were processed

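The measurement was Setd1a CUT & RUN in cultured quiescent adult NSCs, with 2 Setd1a libraries and 1 IgG library. After trimming, the authors kept reads that mapped uniquely to mm10 with sufficient mapping quality. Peaks were called for each Setd1a library, and those shared by both were deposited as 1 list. The submitters' processing notes name bcl2fastq 2.17.1.14, Trimmomatic 0.32, Bowtie2 2.1.0, SAMtools 0.1.18 and MACS2 2.2.8. Per peak the deposited table gives its chromosome and its first and last base, without height or score. Whether the IgG library served as control in peak calling, and by what rule peaks of the libraries were matched, is not given in the sources used here. Both affect how many peaks are listed and how wide they are. The depth per library is unknown.

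Peaks were placed on GENCODE M21 (GRCm38, whose autosome lengths equal those of mm10) with pysam 0.24.0, samtools 1.23.1, pandas 2.3.3, numpy 2.4.6, scipy 1.17.1 and matplotlib 3.10.9 under Python 3.11.15. Distances ran from the nearer edge of a peak, and an overlap of 1 bp counted. Sequence and repeat masking were those of RefSeq GRCm38.p6. Wilson intervals were used for shares, exact Poisson intervals for densities and order-statistic intervals for medians, all at 95%. No test was run, since the list carries no replicates. The classification was tested on simulated data. The genes named are those of the 10 widest peaks, those with the most peaks, members of 14 lists with a peak, the 3 peaks nearest each limit inside and outside, and genes named by the study, and exceptions are stated where they occur. For 2 of the widest peaks the genes are not reported here. The members and lists were chosen with earlier results of these data known. Alternatives covered the point measured, the transcripts used, both limits, width, merging, island criteria and motif windows.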

Additional observations from a re-analysis of the deposited data

How the results depend on the processing

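Of 43 shares, densities and medians recomputed under other settings, 38 stayed within the interval of the reported value. Of 7 recomputed numbers of peaks 3 did (397, 413 and 425, against 403). The number was 286 with an inner limit of 5000 bp, 296 with peaks of at least 300 bp and 476 with GENCODE transcripts tagged basic only. With these basic transcripts, density rose from 1.53 to 1.75 peaks per Mb, the share meeting CpG island criteria from 2.23 to 4.83% and the share of genes with a gene-body peak from 2.37 to 2.63%. With RefSeq transcripts added, the share downstream of the nearest protein-coding TSS was 67.8% in place of 74.2%. With an outer limit of 10000 bp the set had 222 peaks in place of 403, by construction. With peaks of at least 300 bp only, 1.76% of genes held one, again from fewer peaks. The cause of the other shifts was not tested. Of the 22 motif shares, 18 stayed within the interval with 300 bp windows, 20 with peaks of at least 300 bp and 11 with whole peaks searched. No paired analysis was possible because both Setd1a replicates are merged in the deposited intervals, and for the same reason no replicate could be left out. Absence from the list says nothing of weaker binding, since neither depth nor height is known.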
